A study of Mus musculus with 14 samples.

Results

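The proteasome genes of cultured mouse hepatic stellate cells (HSCs) are described here. They were taken as every gene whose symbol starts with Psma, Psmb, Psmc, Psmd, Psme, Psmf or Psmg and stands alone on its array probe set, which gave 50 genes on 56 probe sets, of 19938 genes on the array. Where a gene had several probe sets (5 genes), its brightest by mean was used. HSCs, the vitamin A storing pericytes of the liver, came from BalbC mice (Balb/cByJ in the study's methods), and unattached cells were washed away 2 h after seeding. From then on the cells were cultured in serum-containing medium for 4 h with valproic acid (VPA4h, n = 3) or without it (Ctrl4h, n = 3), for 16 h without it (Ctrl16h, n = 2), and for 64 h with it (VPA64h, n = 3) or without it (Ctrl64h, n = 3). VPA, an inhibitor of histone deacetylases, was used at 2.5 mM. The study asked which genes change early when HSCs activate on plastic and which of these changes VPA prevents. All cells are primary cultures on plastic, so quiescent cells in the liver are not among the groups.

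The proteasome is the barrel-shaped protease that degrades ubiquitin-tagged proteins. Its core is built of alpha rings, which form the gate, and beta rings, which hold the catalytic sites, and a regulatory cap of ATPase and non-ATPase subunits recognises, unfolds and feeds in the substrate. Interferon and other inflammatory signals exchange the standard catalytic subunits for the immunoproteasome subunits, which alters the peptides offered on MHC class I, and PA28 and PA200 are alternative caps that open the gate.

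The arrays were Affymetrix Mouse Gene 1.0 ST, 1 for each culture, and the values are log2 expression levels made by the authors with RMA, which gives all arrays the same distribution. A shift shared by most transcripts can therefore not be seen, and a change says how a gene moved against the rest. In these cultures fewer cells of a type and less RNA per cell cannot be told apart. Group means were compared in 1 limma fit, with p-values adjusted over 23410 probe sets, and a gene is called higher or lower at an adjusted p under 0.05. Differences are in log2 units, the number after ± is the standard error from the fit, and 1.00 is 2-fold. The defining stellate markers Des, Lrat and Reln were measured in all groups, with group means of 8.59 to 10.55, 5.59 to 8.01 and 10.72 to 12.45. The lowest Lrat mean, in Ctrl16h, lay below the array medians of 6.34 to 6.41. Of the 10 stellate markers 3 were called higher and 4 lower in Ctrl64h against Ctrl4h, where 25% and 31.6% of all tested probe sets were.

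The largest VPA effect on a proteasome gene was on Psmb10, the immunoproteasome subunit beta2i that carries trypsin-like activity. Psmb10 measured 6.93, 7.02 and 6.82 in VPA64h, against 8.42, 8.12 and 8.14 in Ctrl64h. The groups did not overlap, and each VPA64h array was below every other array of the series. The difference was -1.30 ± 0.14 (adjusted p = 6.67e-06), or 2.47-fold lower. After 4 h Psmb10 measured 7.63, 7.82 and 7.63 in VPA4h and 8.30, 7.77 and 7.69 in Ctrl4h, and these groups overlapped, with a difference of -0.23 ± 0.14 (adjusted p = 0.33). The effect at 64 h differed from that at 4 h by -1.08 ± 0.20 (adjusted p = 0.00144). At 64 h the call held under each of the 24 other settings tried for it.

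Psmb8 and Psmb9, the other inducible catalytic subunits, did not pass the test at either time. Psmb8, beta5i, measured 8.11, 8.07 and 7.74 in VPA64h, against 8.69, 8.34 and 8.22 in Ctrl64h, which did not overlap, and the difference was -0.44 ± 0.20 (adjusted p = 0.13). With the replicate number as a block, which ties cultures of the same number over all times, Psmb8 had an adjusted p of 0.0171 for the same difference. Psmb8 also passed when arrays were centred on the median level of the housekeeping genes. Psmb9, beta1i, measured 7.75, 7.72 and 7.55 in VPA64h and 7.88, 7.92 and 7.57 in Ctrl64h, which overlapped, and its difference of -0.12 had a 95% interval of -0.40 to 0.17. Psmb8 lies between the peptide transporter genes Tap1 and Tap2 and Psmb9 next to Tap1 in the annotation, while Psmb10 is on another chromosome.

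Immune and endothelial cells can also express these subunits, so markers of other liver cells are given beside them. The mean over the 14 macrophage markers measured was 5.51 to 5.83 in VPA64h and 5.63 to 5.97 in Ctrl64h, and 2 of the 14, Csf1r and Vsig4, were called lower with VPA after 64 h, where 11.2% of all tested probe sets were. The defining Kupffer cell markers Adgre1 and Clec4f averaged 5.05 and 5.24 in VPA64h, against 5.37 and 5.32 in Ctrl64h, below the median of 6.34 to 6.41 over the tested probe sets of an array. Of the 12 sinusoidal endothelial markers 5 were lower with VPA after 64 h, against the same 11.2%, with Emcn at -1.13 ± 0.14 (adjusted p = 2.61e-05), and their mean was 5.69 to 5.75 in VPA64h, against 5.92 to 6.24 in Ctrl64h. The part of these cells in the immunoproteasome values was not tested.

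The promoters of the 3 immunoproteasome genes and of Psme4 are shown because Psmb10 and Psme4 were called with VPA after 64 h and Psmb8 and Psmb9 are the other inducible catalytic subunits. They run from 250 bases before to 50 bases after the gene start in RefSeq on build GRCm38.p6, and 42 of the 50 genes had an entry in the table. Capitals mark matches to the motifs searched on both strands, which were the antioxidant response element core TGACNNNGC, the gamma-activated site TTCNNNGAA, the interferon response motif GAAANNGAA and the CCAAT box.
Psmb10, chr8:105938343-105938642, minus strand: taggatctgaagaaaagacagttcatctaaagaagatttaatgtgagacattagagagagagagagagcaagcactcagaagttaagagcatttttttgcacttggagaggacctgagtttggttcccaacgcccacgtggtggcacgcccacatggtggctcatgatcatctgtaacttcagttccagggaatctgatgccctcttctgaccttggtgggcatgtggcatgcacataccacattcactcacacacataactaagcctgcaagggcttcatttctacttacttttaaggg
Psmb8, chr17:34197945-34198244, plus strand: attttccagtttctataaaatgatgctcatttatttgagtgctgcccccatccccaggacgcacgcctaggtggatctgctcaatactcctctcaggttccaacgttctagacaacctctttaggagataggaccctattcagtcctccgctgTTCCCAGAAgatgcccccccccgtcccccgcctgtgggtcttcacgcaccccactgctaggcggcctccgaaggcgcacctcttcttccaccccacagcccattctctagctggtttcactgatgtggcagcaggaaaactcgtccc
Psmb9, chr17:34187281-34187580, minus strand: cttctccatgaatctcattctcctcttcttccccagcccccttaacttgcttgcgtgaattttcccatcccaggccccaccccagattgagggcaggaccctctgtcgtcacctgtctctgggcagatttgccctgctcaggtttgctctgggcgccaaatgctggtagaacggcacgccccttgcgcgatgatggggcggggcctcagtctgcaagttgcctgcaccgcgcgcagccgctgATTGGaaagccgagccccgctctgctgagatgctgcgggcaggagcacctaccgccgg
Psme4, chr11:30771525-30771824, plus strand: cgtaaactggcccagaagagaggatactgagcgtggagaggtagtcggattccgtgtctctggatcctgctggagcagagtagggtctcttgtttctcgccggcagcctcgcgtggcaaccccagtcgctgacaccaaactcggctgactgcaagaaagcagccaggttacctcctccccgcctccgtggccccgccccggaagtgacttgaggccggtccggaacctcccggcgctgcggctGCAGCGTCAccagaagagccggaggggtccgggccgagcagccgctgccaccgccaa
The Psmb8 window held a match to the gamma-activated site 97 bases before the start, the Psmb9 window a CCAAT box and the Psme4 window an antioxidant response element core, while none of the letters searched stood in the Psmb10 window.

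Over all windows of this length, the antioxidant response element core occurred in 6 of the 42 proteasome genes (14.3%) and in 14% of all promoters. The gamma-activated site occurred in 3 of the 42 proteasome genes (7.14%) and in 9.55% of all promoters, the interferon response motif in 7 of the 42 proteasome genes (16.7%) and in 9.76% of all promoters, and the CCAAT box in 16 of the 42 proteasome genes (38.1%) and in 41.1% of all promoters. Each share among the proteasome genes is given as a description of these letters.

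The standard catalytic subunits, which the inducible ones replace, were not called with VPA after 64 h. Psmb7, the standard beta2, measured 10.93, 10.81 and 10.69 in VPA64h and 10.72, 10.58 and 10.79 in Ctrl64h, with a difference of 0.11 and a 95% interval of -0.075 to 0.30. The intervals were -0.28 to 0.12 for Psmb5, the chymotrypsin-like beta5, and -0.22 to 0.17 for Psmb6, the caspase-like beta1. After 4 h Psmb5 measured 8.72, 8.81 and 8.51 in VPA4h, against 8.90, 8.97 and 9.09 in Ctrl4h, which did not overlap, with a difference of -0.30 ± 0.095 (adjusted p = 0.0303). That call was lost without Ctrl4h replicate 2 or 3 or without VPA4h replicate 1 or 3, and over all settings its adjusted p reached 0.224.

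**Figure D1:**
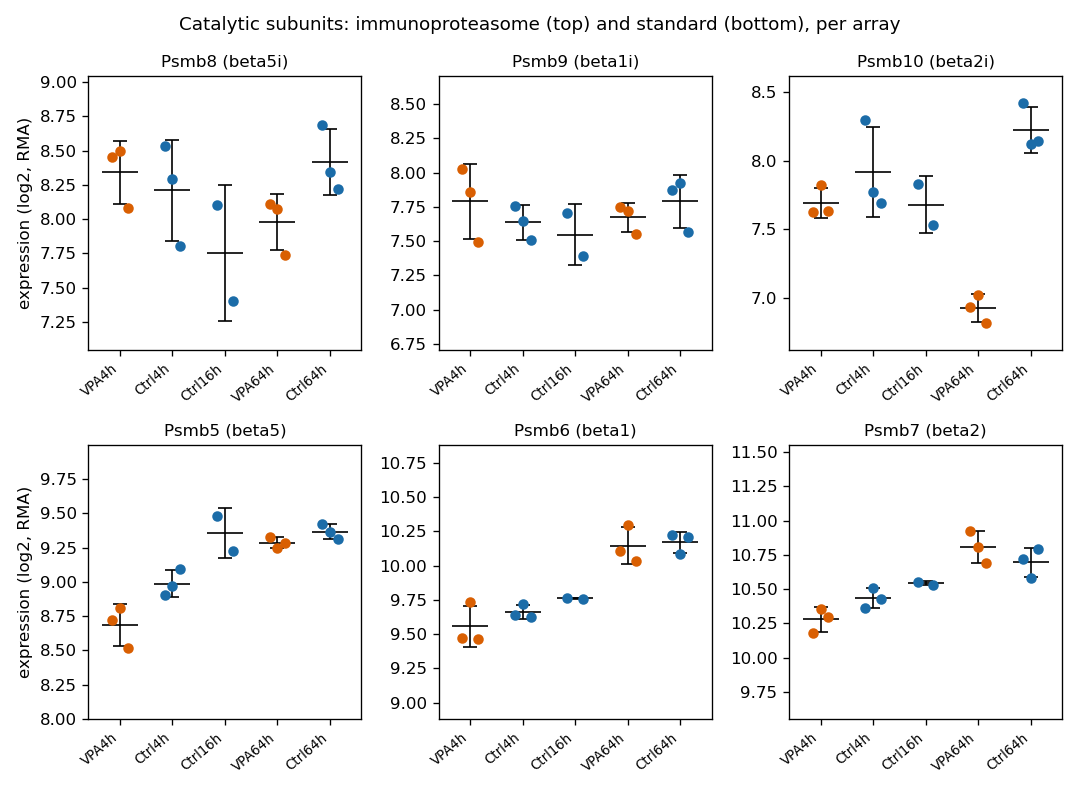
Log2 expression (RMA, vertical axis, the same span in each panel) of the immunoproteasome catalytic subunits (top) and the standard ones (bottom) on each array, by group along the horizontal axis, with VPA groups in orange and controls in blue. Bars are the mean and SD. Psmb10 lies between 6.82 and 7.02 in VPA64h, below all other arrays, and the standard subunits overlap between VPA64h and Ctrl64h.

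VPA for 4 h lowered more proteasome genes than it raised. Of the 50 genes, 3 were called higher and 15 lower, where 11.5% of all tested probe sets were called higher and 9.96% lower, and the members' median difference was -0.16, against -0.025 over all tested probe sets. Centred on the median level of housekeeping genes the counts were 3 higher and 11 lower, on the housekeeping genes each centred first 4 and 8, and on the Gapdh probe set 2 and 42, settings that shift every gene by 0.019, 0.12 and -0.33. Under these 3 centrings 2467, 3750 and 911 of all probe sets were higher and 1822, 1347 and 15178 lower. With the values as deposited none of the members changed 2-fold, where 1.42% of all probe sets did. Leaving out 1 array gave 10 to 15 lower, with 10 without Ctrl4h replicate 2 or VPA4h replicate 1 or 3.

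The decreases at 4 h included chaperones that assemble the core. Psmg4, of the PAC3 and PAC4 chaperone pair, measured 5.75, 6.20 and 6.02 in VPA4h, against 6.74, 6.82 and 6.67 in Ctrl4h, a difference of -0.75 ± 0.10 (adjusted p = 5.06e-05). Psmg2, of the PAC1 and PAC2 pair that builds the alpha ring, measured 7.34, 7.11 and 7.22 in VPA4h, against 7.97, 7.99 and 7.65 in Ctrl4h, a difference of -0.64 ± 0.11 (adjusted p = 0.000289). Neither gene overlapped between the groups, though the Psmg4 values in VPA4h lay below the medians of those arrays, 6.34 to 6.39. In this class 3 of the 5 genes were lower. The alpha ring subunit Psma3 measured 9.42, 9.62 and 9.67 in VPA4h, against 9.99, 10.18 and 10.07 in Ctrl4h, a difference of -0.51 ± 0.10 (adjusted p = 0.00151). Its other probe sets gave -0.48 and -0.48.

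Psmd7, a lid subunit that pairs with the deubiquitinase of the cap, measured 9.91, 9.93 and 9.97 in VPA4h, against 10.45, 10.55 and 10.31 in Ctrl4h, a difference of -0.50 ± 0.081 (adjusted p = 0.000238) without overlap. By class, 3 of 7 alpha ring genes, 1 of 7 standard beta ring genes, 2 of 6 ATPases and 4 of 11 non-ATPase genes were lower, and none of these classes had a higher gene. None of the 3 immunoproteasome genes was called.

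The 3 genes higher at 4 h were chaperones of the cap and an activator. Psmd5, a chaperone of the ATPase base, measured 9.02, 9.12 and 8.94 in VPA4h, against 8.29, 8.43 and 8.24 in Ctrl4h, a difference of 0.71 ± 0.090 (adjusted p = 2.40e-05) without overlap. Psmd9, another base chaperone, measured 8.23, 8.32 and 8.21 in VPA4h and 7.86, 8.15 and 7.94 in Ctrl4h, a difference of 0.27 ± 0.085 (adjusted p = 0.0315). The Psmd9 call was lost on leaving out any of 5 of the 6 arrays of these groups (all but Ctrl4h replicate 2), and centred on the Gapdh probe set its difference was -0.060. The third was Psme4, described with the activators.

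After 64 h with VPA few proteasome genes differed from the control. Of the 50 genes, 5 were called higher and 3 lower, where 12.8% of all tested probe sets were called higher and 11.2% lower, and 1 gene, Psmb10, was past 2-fold, where 2.14% of all probe sets were. The members' median was 0.032, against 0.0037 over all probe sets, and the count of higher genes depended on the scaling. Arrays were centred on the median level of the housekeeping genes, on those genes each centred first, and on the Gapdh probe set. This gave 0, 6 and 1 higher and 9, 3 and 4 lower genes, with shifts of -0.16, 0.045 and -0.12. Over all probe sets 1287, 3288 and 1476 were higher and 5342, 1968 and 3856 lower. With the replicate block 5 genes were lower, and the 2 added ones were Psmb8 and Psme2. Without Ctrl64h replicate 1 or VPA64h replicate 3, 3 genes were higher, and without Ctrl64h replicate 2 or 3 or VPA64h replicate 1, 2 were.

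Psmd8, a lid subunit, measured 10.67, 10.63 and 10.58 in VPA64h, against 10.21, 10.17 and 10.29 in Ctrl64h, without overlap. The difference was 0.41 ± 0.10 (adjusted p = 0.00827). Centred on the median level of the housekeeping genes or on the Gapdh probe set the Psmd8 call was lost, with an adjusted p up to 0.127. Psma5 of the alpha ring was higher by 0.32 ± 0.088 (adjusted p = 0.0147), and its call was lost without Ctrl64h replicate 2 or 3 or VPA64h replicate 1, and on its other probe set, where the difference was 0.19. The chaperone Psmg1 was higher by 0.25 ± 0.081 (adjusted p = 0.0338), a call lost on leaving out any array of these groups but VPA64h replicate 2. Centred on the median level of the housekeeping genes or on the Gapdh probe set, the calls of Psma5 and Psmg1 were also lost. Both were lost too when only the groups of the contrast were fitted, and over all settings their adjusted p reached 0.288 and 0.492. The lower genes besides Psmb10 were Psma8, a testis form of an alpha subunit, with -0.46 ± 0.10 (adjusted p = 0.00343), and Psmc3ip, a meiotic recombination factor that is no proteasome subunit, with -0.46 ± 0.092 (adjusted p = 0.00161).

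Psmd14, the deubiquitinase of the cap, was lower in VPA4h, at -0.46 ± 0.096 (adjusted p = 0.00207), and Psmc5, an ATPase of the base, at -0.46 ± 0.083 (adjusted p = 0.000581). Psmd1, the scaffold of the base, had effects of opposite sign at the 2 times, with 10.14, 10.30 and 10.26 in VPA4h, against 10.59, 10.69 and 10.63 in Ctrl4h, and 10.54, 10.45 and 10.64 in VPA64h, against 10.35, 10.26 and 10.29 in Ctrl64h. The difference was -0.40 ± 0.079 (adjusted p = 0.00126) after 4 h and 0.24 ± 0.079 (adjusted p = 0.0359) after 64 h, and that between the effects was 0.65 ± 0.11 (adjusted p = 0.000881). The 64 h call of Psmd1 was lost without any array of these groups but VPA64h replicate 2, and when arrays were centred on the median level of the housekeeping genes or on the Gapdh probe set. The thymus subunit Psmb11 and the testis subunit Psma8 averaged 5.88 and 5.43 in VPA64h, against 5.84 and 5.89 in Ctrl64h, below the median over probe sets.

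**Figure D2:**
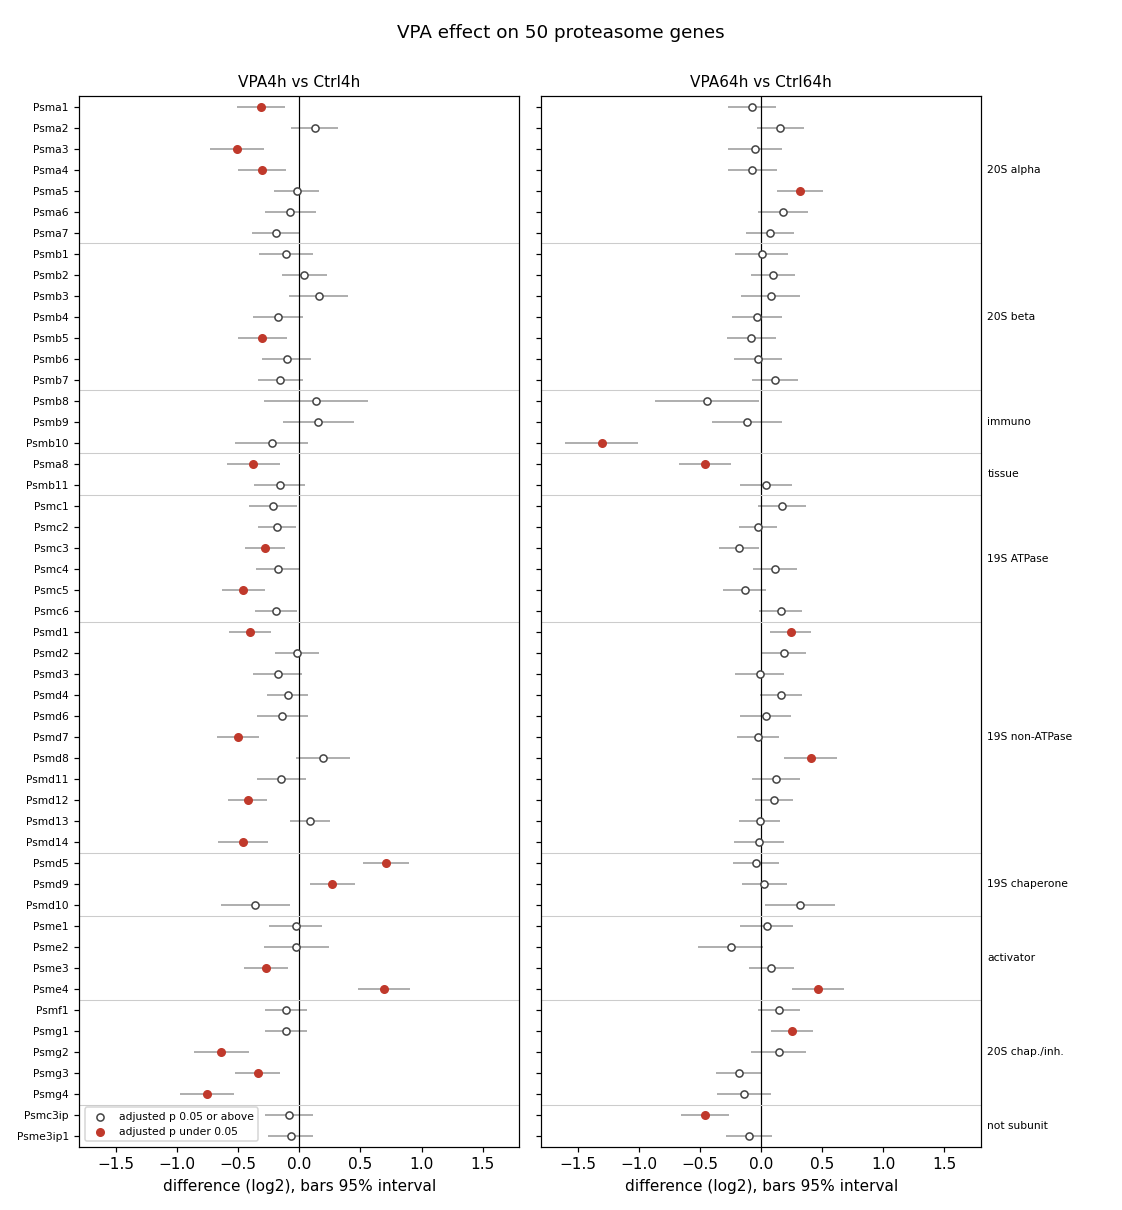
Difference with VPA (log2, horizontal axis, bars 95% interval from limma) of each of the 50 proteasome genes, by class down the page, after 4 h (left) and 64 h (right). Filled points have an adjusted p under 0.05. Most called genes lie left of 0 at 4 h, and Psmb10 at -1.30 stands farthest from 0 at 64 h.

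The VPA effect differed between 64 h and 4 h for 11 genes, with 9 higher at 64 h and 2 lower, where 7.54% of all probe sets were called higher and 8.33% lower. The members' median was 0.21, against 0.025 over all probe sets. Arrays centred on the median level of the housekeeping genes gave 2 and 4, and on those genes each centred first 6 and 3. Centred on the Gapdh probe set the counts were 22 and 2. Over all probe sets they were 622 and 3062, 1072 and 2206, and 4045 and 886. Without Ctrl4h replicate 2, Ctrl64h replicate 2 or VPA64h replicate 1, 5 genes were higher. With the replicate block 8 genes were higher and 4 lower, since Psmg1 lost its call (adjusted p = 0.056) and Psmb8 and Psmc3ip gained one (0.0368 and 0.0349). Only Psmb10 passed 2-fold, where 2.59% of all probe sets did. Psmd5, raised at 4 h, had a difference of effects of -0.75 ± 0.13 (adjusted p = 0.000707) and measured 8.97, 8.92 and 9.04 in VPA64h and 9.13, 8.85 and 9.07 in Ctrl64h. Psmg2 had a difference of effects of 0.79 ± 0.15 (adjusted p = 0.00184) and measured 8.31, 8.22 and 8.03 in VPA64h and 7.98, 8.13 and 8.01 in Ctrl64h.

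Among the activators, Psme4 was higher with VPA at both times. Psme4 encodes PA200, an ATP-independent cap. It measured 9.04, 8.98 and 9.18 in VPA4h, against 8.35, 8.34 and 8.43 in Ctrl4h, a difference of 0.69 ± 0.10 (adjusted p = 8.46e-05), and 9.21, 8.83 and 9.22 in VPA64h, against 8.66, 8.56 and 8.65 in Ctrl64h, a difference of 0.47 ± 0.10 (adjusted p = 0.00288). The groups did not overlap at either time. The effect at 64 h minus that at 4 h was -0.23 ± 0.14 (adjusted p = 0.34), and a difference between the times was not shown. Centred on the median level of the housekeeping genes the 64 h call was lost, with an adjusted p of 0.076.

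Psme1 and Psme2 encode PA28 alpha and beta, which form 1 ring and are induced by interferon gamma. In the controls Psme1 measured 9.31, 9.47 and 9.13 in Ctrl4h, 8.81 and 8.56 in Ctrl16h and 9.64, 9.68 and 9.65 in Ctrl64h. The Ctrl16h arrays were the lowest of the 3 groups, with no overlap, and the difference was -0.62 ± 0.12 (adjusted p = 0.00105) at 16 h against 4 h and 0.97 ± 0.12 (adjusted p = 6.73e-06) at 64 h against 16 h. Psme2 measured 9.53, 9.63 and 9.24 in Ctrl4h, 8.97 and 8.82 in Ctrl16h and 9.68, 9.56 and 9.46 in Ctrl64h, with differences of -0.57 ± 0.14 (adjusted p = 0.00809) and 0.67 ± 0.14 (adjusted p = 0.00126). The first of these was lost without Ctrl16h replicate 2. The 16 h values rest on 2 arrays.

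VPA did not pass the test on Psme1 or Psme2 at either time, with 95% intervals at 64 h of -0.17 to 0.26 and -0.52 to 0.018, and with the replicate block Psme2 had an adjusted p of 0.0484 at 64 h. Psme3, the nuclear PA28 gamma, measured 10.37, 10.34 and 10.33 in Ctrl4h, 10.12 and 10.36 in Ctrl16h and 9.57, 9.33 and 9.48 in Ctrl64h. Its Ctrl64h arrays were the lowest, and the difference of 64 h against 4 h was -0.89 ± 0.086 (adjusted p = 3.08e-07). With VPA it measured 10.04, 10.10 and 10.08 in VPA4h, below all Ctrl4h arrays, a difference of -0.27 ± 0.086 (adjusted p = 0.0305) that was lost on leaving out any array of these groups. Psmf1, an inhibitor of the core, was higher at 16 h by 0.44 ± 0.090 (adjusted p = 0.0023), which turned negative when arrays were centred on the median level of the housekeeping genes, and did not pass the test with VPA.

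**Figure D3:**
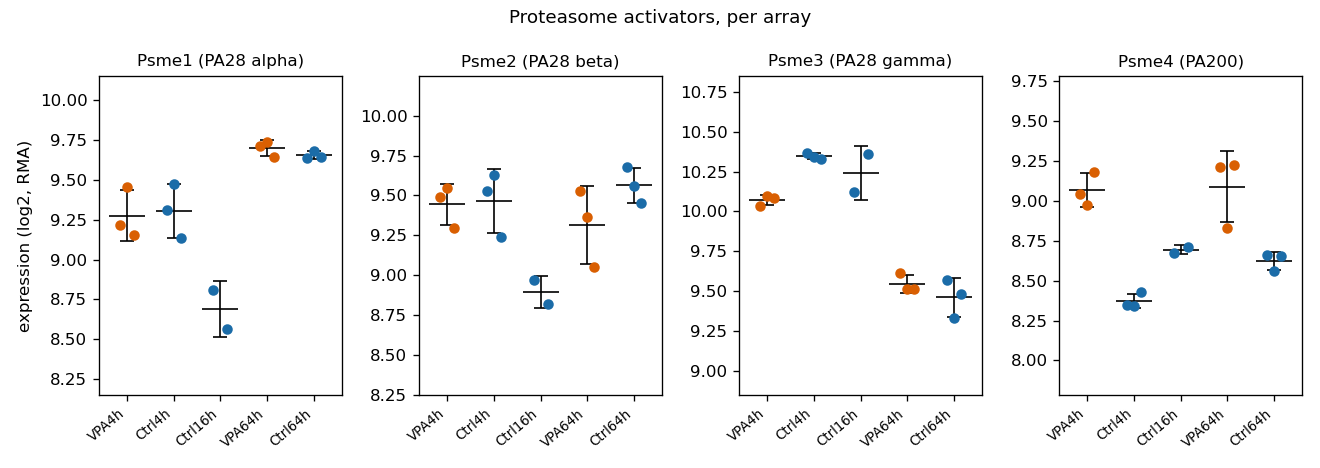
Log2 expression (RMA, vertical axis, the same span in each panel) of the activator genes on each array by group along the horizontal axis, VPA groups in orange and controls in blue, with the mean and SD. Psme1 and Psme2 are lowest in Ctrl16h, Psme3 is lower in both 64 h groups, and Psme4 is higher in VPA4h and VPA64h than in the control of the same time.

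With the values as deposited, more genes were called in untreated cells between 16 and 64 h than between 4 and 16 h, as over all probe sets. From 4 to 16 h 8 of the 50 genes were called higher and 4 lower (12.8% and 7.32% of all probe sets), and between 16 and 64 h 13 higher and 14 lower (19.2% and 23.9%). For 64 h against 4 h 17 were higher and 10 lower (25% and 31.6%). The numbers past 2-fold were 0, 1 and 0, against 1.91%, 6.6% and 10.4% of all probe sets. Without Ctrl16h replicate 1 the counts fell to 4 higher for 16 h against 4 h and 7 lower for 64 h against 16 h. Without Ctrl4h replicate 1, 5 were higher, and without Ctrl16h replicate 2, 2 were lower, for 16 h against 4 h.

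The split into higher and lower genes in culture depended on the scaling, since every gene shifts by -0.54, -0.26 and -0.56 for 64 h against 4 h when arrays were centred on the median level of the housekeeping genes, on those genes each centred first, and on the Gapdh probe set, with 0, 6 and 0 proteasome genes higher and 39, 22 and 39 lower. The same centrings made 2233, 3709 and 2089 of all probe sets higher and 17822, 13822 and 17859 lower. For 16 h against 4 h the counts of proteasome genes were 0, 2 and 0 higher and 42, 18 and 32 lower. Over all probe sets they were 356, 1290 and 566 higher and 19557, 6303 and 16197 lower. For 64 h against 16 h 13, 12 and 5 proteasome genes were higher and 12, 16 and 16 lower. Over all probe sets 4226, 3868 and 3052 were higher and 4459, 6339 and 8418 lower. Centred on the median level of the housekeeping genes or on the Gapdh probe set, more proteasome genes were thus called in the earlier interval, as over all probe sets.

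Relative to the other genes, non-ATPase subunits of the cap moved in both directions. Psmd3, a lid subunit, measured 9.65, 9.57 and 9.53 in Ctrl4h, 9.90 and 10.07 in Ctrl16h and 8.80, 8.53 and 8.82 in Ctrl64h. It was the only gene past 2-fold in the controls, at -1.27 ± 0.10 (adjusted p = 1.50e-07) for 64 h against 16 h. Psmd11, a lid subunit, measured 10.81, 10.71 and 10.64 in Ctrl4h, 10.53 and 10.69 in Ctrl16h and 10.01, 9.83 and 9.99 in Ctrl64h, a difference for 64 h against 4 h of -0.77 ± 0.094 (adjusted p = 3.53e-06). Both kept their calls under every setting tried.

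Psmd13, another lid subunit, was higher in Ctrl64h by 0.71 ± 0.078 (adjusted p = 1.30e-06), and the base chaperones Psmd10, known as gankyrin, and Psmd5 by 0.71 ± 0.13 (adjusted p = 0.000303) and 0.70 ± 0.090 (adjusted p = 6.98e-06). These 3 calls, and that of the core chaperone Psmg1 at 0.59 ± 0.081 (adjusted p = 1.36e-05), were lost when arrays were centred on the median level of the housekeeping genes or on the Gapdh probe set. Psmd10 measured 8.52, 8.38 and 8.03 in Ctrl4h, 8.24 and 8.28 in Ctrl16h and 9.07, 8.83 and 9.16 in Ctrl64h, with the Ctrl64h arrays above all others of these groups. All 3 base chaperones were higher at 64 h than at 4 h, and of the 11 non-ATPase genes 3 were higher and 5 lower.

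Of the catalytic subunits, the standard Psmb5, Psmb6 and Psmb7 were higher in Ctrl64h than in Ctrl4h by 0.38, 0.51 and 0.26 with adjusted p of 0.00317, 0.000231 and 0.0183, and all 3 turned negative when arrays were centred on the median level of the housekeeping genes or on the Gapdh probe set. The immunoproteasome genes did not pass the test for 64 h against 4 h. For 64 h against 16 h Psmb8 and Psmb10 were higher by 0.67 ± 0.22 (adjusted p = 0.0249) and 0.55 ± 0.16 (adjusted p = 0.0107). Psmb8 was lost without Ctrl16h replicate 2 or Ctrl64h replicate 1, and Psmb10 without Ctrl16h replicate 2. Both were lost centred on the Gapdh probe set. Psmb8 was also lost with a trended and robust prior, without moderation, and when all probe sets of the table were tested. Over all settings the adjusted p reached 0.369 for Psmb8 and 0.139 for Psmb10. In this contrast 5 of the 14 macrophage markers were called higher and 1 lower (19.2% and 23.9% of all probe sets), with a median difference of 0.040, and their part was not tested.

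With VPA the time course was tested between 64 and 4 h. Of the 50 genes 21 were called higher and 5 lower in VPA64h against VPA4h (23.2% and 27.1% of all probe sets). Past 2-fold was 1 gene (7.55%). With the same 3 centrings 2, 9 and 8 were higher and 40, 24 and 22 lower. Over all probe sets these gave 1298, 2959 and 2723 higher and 19621, 15384 and 15340 lower. Psmd10 measured 9.44, 9.35 and 9.23 in VPA64h, against 8.08, 8.07 and 7.70 in VPA4h, a difference of 1.39 ± 0.13 (adjusted p = 4.09e-07), called under every setting. Psmg1 and Psmg2 differed by 0.95 ± 0.081 (adjusted p = 1.03e-07) and 0.96 ± 0.11 (adjusted p = 1.90e-06). The Psmg2 call was lost when arrays were centred on the median level of the housekeeping genes (adjusted p = 0.0625). Psmb10, Psmd3 and Psme3 were lower, with differences of -0.77, -0.70 and -0.53, under every setting. This contrast shares its arrays with the contrasts above.

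**Figure D4:**
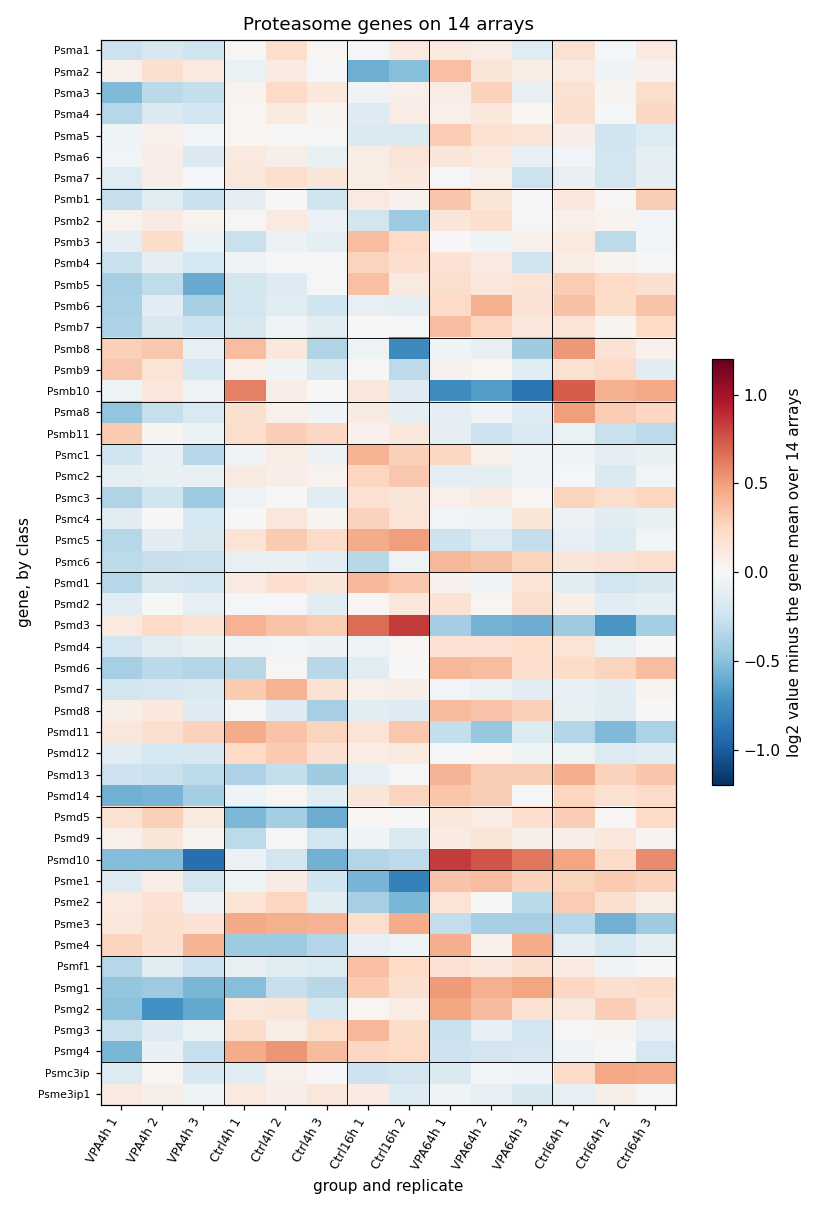
Each row is a proteasome gene, by class, and each column an array, and the colour gives the log2 value minus the mean of that gene over the 14 arrays, from blue (lower) to red (higher). Deviations run from -0.90 to 0.84. Psmb10 is blue only in VPA64h among the 64 h arrays, Psmd3 is blue in both 64 h groups, and Psmd10 is red in both.

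Other genes of the pathway were taken from 3 lists. Of the 19 proteasome partners and regulators measured, 2 were higher and 4 lower in VPA4h, and 1 higher and 1 lower in VPA64h, where 11.5% and 9.96% of all tested probe sets at 4 h and 12.8% and 11.2% at 64 h were higher and lower. The median differences were -0.10 and 0.032, against -0.025 and 0.0037 over all tested probe sets. Uchl5, a deubiquitinase of the cap, measured 8.26, 8.42 and 8.27 in VPA4h, against 7.52, 7.69 and 7.49 in Ctrl4h, a difference of 0.75 ± 0.087 (adjusted p = 1.05e-05) without overlap. In untreated culture 3 were higher and 10 lower at 64 h than at 4 h (25% and 31.6% of all probe sets), led by the shuttle factor gene Ubqln4 at -1.07 ± 0.096 (adjusted p = 1.30e-07) and with the small lid subunit gene Sem1 higher by 0.82 ± 0.099 (adjusted p = 3.72e-06). Uba6, a ubiquitin-activating enzyme and the only one measured on its list, was higher with VPA by 0.56 after 4 h and 0.45 after 64 h. Centred on the Gapdh probe set both calls of Uba6 were lost, and centred on the median level of the housekeeping genes that at 64 h.

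Of the 17 genes of MHC class I processing and its regulators, 4 were higher and 1 lower in VPA4h, and 1 higher and 3 lower in VPA64h, against the same shares of all probe sets. The median differences were 0.098 and -0.088, against -0.025 and 0.0037 over all probe sets. Erap1, the aminopeptidase that trims class I peptides, measured 7.45, 7.51 and 7.26 in VPA64h, against 8.44, 8.35 and 8.25 in Ctrl64h. The difference was -0.94 ± 0.10 (adjusted p = 8.55e-06). Erap1 was also the lower gene in VPA4h, at -0.52 (adjusted p = 0.00149). Tapbpl, a peptide editor, measured 5.89, 6.14 and 6.23 in VPA64h, against 7.06, 7.34 and 7.04 in Ctrl64h, a difference of -1.06 ± 0.12 (adjusted p = 1.50e-05). Neither gene overlapped between VPA64h and Ctrl64h, though the Tapbpl values in VPA64h lay below the medians of those arrays, 6.39 to 6.40. Tap1, which neighbours Psmb9, was higher in VPA4h by 0.77 ± 0.15 (adjusted p = 0.00118), measuring 8.74, 8.59 and 8.30 in VPA4h and 8.07, 7.75 and 7.49 in Ctrl4h, while Psmb9 had a difference of 0.15 ± 0.14 (adjusted p = 0.537). Stat2 was the higher gene in VPA64h, by 0.56 (adjusted p = 0.0134), and was also higher in VPA4h, by 0.66 (adjusted p = 0.00466). In untreated culture 5 of the 17 were higher and 7 lower at 64 h than at 4 h (25% and 31.6% of all probe sets). The regulators Irf1, Irf2 and Nlrc5 were lower at 64 h, at -0.89, -0.86 and -0.79, and Stat2, Pdia3 and Calr were higher by 1.01, 0.78 and 0.68.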

How the data were processed

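RNA from 14 cultures was measured on Affymetrix Mouse Gene 1.0 ST arrays. The deposited values are log2 expression levels that the authors made with RMA (background correction, quantile normalisation, probe summarisation). The methods name GeneSpring GX and the submitters' processing notes Affymetrix Expression Console for this step. The values were used as deposited. Of 35557 probe sets, 23410 carry a gene symbol and were tested while names were taken from the 21789 holding 1 symbol alone. Arrays give no counts, so their number limits the precision.

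All 5 groups were fitted together with limma 3.58.1 in R 4.3.3 (lmFit, eBayes, 9 residual and 6.52 prior degrees of freedom, two-sided), with Benjamini-Hochberg adjustment over the tested probe sets of each of 7 contrasts, and tested on simulated data. The methods' 2-fold limit was counted beside the adjusted p. The proteasome genes and the gene lists were chosen with earlier results of these data known. The genes named are the catalytic subunits and activators and the highest-mean gene of each class. They also include up to 4 increases and 4 decreases among called genes of each contrast. Of each pathway list up to 4 called genes of a contrast were taken, and Pdia3 and Calr were named besides these. Markers of other cell types named singly were chosen after their values were seen.

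The study's text describes independent isolations per group. Same-numbered cultures deviated together within a time (r of 0.14 to 0.28 between VPA4h and Ctrl4h, 0.16 to 0.17 between VPA64h and Ctrl64h over all tested probe sets), so the blocked fit is given where it changes a call of VPA against the control. Across times r of same-numbered cultures ran from -0.014 to 0.23 between the 4 h and 64 h groups. In pairs with Ctrl16h it ran from -0.24 to 0.19. The 2 arrays of Ctrl16h deviate from their mean by equal and opposite amounts, so these pairs say little on pairing. The block is an effect of the replicate number over all arrays, so it also ties cultures of different times. Its calls of VPA against the control thus rest in part on ties that were not read as pairing. This reading was settled with the blocked counts already known, so both fits are given. Alternatives covered the moderation, the probe sets tested, a filter on low values, the scaling of the arrays, the probe set of a gene, the block and leaving out each array. A further housekeeping scaling, which takes each gene's deviation from its own mean, was chosen after seeing the data, because the planned one takes the median level of 16 genes and can move between genes of different level. Motifs were searched with Python 3.11.15.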

Additional observations from a re-analysis of the deposited data

Results flagged for a closer look

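For 11 proteasome genes the VPA effect differed between 64 h and 4 h by the interaction term of the limma fit, and each is given with the effect at 64 h minus that at 4 h, on the log2 scale. Psmb10 had a difference of -1.08 (adjusted p = 0.00144), from -1.30 at 64 h and -0.23 at 4 h. Psmg2 had a difference of 0.79 (adjusted p = 0.00184), from 0.14 at 64 h and -0.64 at 4 h. Psmd5 had a difference of -0.75 (adjusted p = 0.000707), from -0.041 at 64 h and 0.71 at 4 h. Psmd10 had a difference of 0.68 (adjusted p = 0.0216), from 0.32 at 64 h and -0.36 at 4 h. Psmd1 had a difference of 0.65 (adjusted p = 0.000881), from 0.24 at 64 h and -0.40 at 4 h. Psmg4 had a difference of 0.61 (adjusted p = 0.00853), from -0.14 at 64 h and -0.75 at 4 h. Psmd12 had a difference of 0.53 (adjusted p = 0.00234), from 0.10 at 64 h and -0.42 at 4 h. Psmd7 had a difference of 0.48 (adjusted p = 0.00896), from -0.022 at 64 h and -0.50 at 4 h. Psma3 had a difference of 0.46 (adjusted p = 0.0426), from -0.052 at 64 h and -0.51 at 4 h. Psmd14 had a difference of 0.44 (adjusted p = 0.0384), from -0.021 at 64 h and -0.46 at 4 h. Psmg1 had a difference of 0.36 (adjusted p = 0.0427), from 0.25 at 64 h and -0.11 at 4 h. The calls of Psmb10, Psmg2, Psmd5 and Psmd1 held under every other setting tried, and those of Psmg4, Psmd12 and Psmd7 were lost only when arrays were centred on the median level of the housekeeping genes. The call was lost in 8 of 24 settings for Psmd10 (5 of them leaving out 1 array, adjusted p up to 0.089), 15 of 25 settings for Psma3 (10 of them leaving out 1 array, adjusted p up to 0.256), 13 of 24 settings for Psmd14 (9 of them leaving out 1 array, adjusted p up to 0.306), 15 of 24 settings for Psmg1 (11 of them leaving out 1 array, adjusted p up to 0.406). Psmg1 was lost with the replicate block, and 1 of the 2 other probe sets of Psma3 had an adjusted p of 0.0559.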

How the results depend on the processing

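The counts of proteasome genes called higher or lower are given as count with the stated setting against the count reported. With arrays centred on the median level of the housekeeping genes, 0 against 8 genes were higher for Ctrl16h against Ctrl4h, 42 against 4 genes were lower for Ctrl16h against Ctrl4h, 0 against 17 genes were higher for Ctrl64h against Ctrl4h, 39 against 10 genes were lower for Ctrl64h against Ctrl4h, 0 against 5 genes were higher for VPA64h against Ctrl64h, 9 against 3 genes were lower for VPA64h against Ctrl64h, 2 against 21 genes were higher for VPA64h against VPA4h, 40 against 5 genes were lower for VPA64h against VPA4h, 2 against 9 genes were higher for the difference of VPA effects, 4 against 2 genes were lower for the difference of VPA effects. With the housekeeping genes each centred first, a setting chosen after seeing the data, 2 against 8 genes were higher for Ctrl16h against Ctrl4h, 18 against 4 genes were lower for Ctrl16h against Ctrl4h, 6 against 17 genes were higher for Ctrl64h against Ctrl4h, 22 against 10 genes were lower for Ctrl64h against Ctrl4h, 8 against 15 genes were lower for VPA4h against Ctrl4h, 9 against 21 genes were higher for VPA64h against VPA4h, 24 against 5 genes were lower for VPA64h against VPA4h. Centred on the Gapdh probe set, which names 4 genes, 0 against 8 genes were higher for Ctrl16h against Ctrl4h, 32 against 4 genes were lower for Ctrl16h against Ctrl4h, 5 against 13 genes were higher for Ctrl64h against Ctrl16h, 0 against 17 genes were higher for Ctrl64h against Ctrl4h, 39 against 10 genes were lower for Ctrl64h against Ctrl4h, 42 against 15 genes were lower for VPA4h against Ctrl4h, 1 against 5 genes were higher for VPA64h against Ctrl64h, 8 against 21 genes were higher for VPA64h against VPA4h, 22 against 5 genes were lower for VPA64h against VPA4h, 22 against 9 genes were higher for the difference of VPA effects. Fitting only the groups of a contrast, 2 against 5 genes were higher for VPA64h against Ctrl64h. With the replicate block, 5 against 3 genes were lower for VPA64h against Ctrl64h, 4 against 2 genes were lower for the difference of VPA effects. With a trended and robust prior, 14 against 9 genes were higher for the difference of VPA effects. Testing all probe sets of the table, 5 against 9 genes were higher for the difference of VPA effects. Testing only probe sets above the median on at least 2 arrays, 14 against 9 genes were higher for the difference of VPA effects. Leaving out 1 array at a time gave 4 to 9 higher for Ctrl16h against Ctrl4h, 2 to 5 lower for Ctrl16h against Ctrl4h, 7 to 15 lower for Ctrl64h against Ctrl16h, 2 to 5 higher for VPA64h against Ctrl64h, 5 to 9 higher for the difference of VPA effects. With arrays centred on the median level of the housekeeping genes, the sign turned for Ctrl16h against Ctrl4h of Psmb5 (-0.19), Psmb6 (-0.46), Psmb7 (-0.45), Psmf1 (-0.12), Psmd2 (-0.42), Psmd5 (-0.024), Psmb3 (-0.10), for Ctrl64h against Ctrl4h of Psmb9 (-0.39), Psmb5 (-0.16), Psmb6 (-0.033), Psmb7 (-0.28), Psme1 (-0.19), Psme2 (-0.45), Psme4 (-0.29), Psmf1 (-0.39), Psma1 (-0.53), Psmc6 (-0.26), Psmd2 (-0.54), for VPA64h against VPA4h of Psmb5 (-0.12), Psmb6 (-0.13), Psmb7 (-0.19), Psme1 (-0.30), Psme4 (-0.70), Psmf1 (-0.31), Psma1 (-0.47), Psmc6 (-0.091), Psmd2 (-0.51), Psmd14 (-0.0029). Centred on the Gapdh probe set, which names 4 genes, the sign turned for Ctrl16h against Ctrl4h of Psmb5 (-0.052), Psmb6 (-0.32), Psmb7 (-0.31), Psmd2 (-0.28), for Ctrl64h against Ctrl4h of Psmb9 (-0.40), Psmb5 (-0.18), Psmb6 (-0.048), Psmb7 (-0.29), Psme1 (-0.21), Psme2 (-0.46), Psme4 (-0.31), Psmf1 (-0.41), Psma1 (-0.55), Psmc6 (-0.28), Psmd2 (-0.56), Uba6 (-0.012), for VPA4h against Ctrl4h of Psmd9 (-0.060), for VPA64h against VPA4h of Psme4 (-0.33), Psma1 (-0.099). With the housekeeping genes each centred first, a setting chosen after seeing the data, the sign turned for Ctrl64h against Ctrl4h of Psme4 (-0.010), Psma1 (-0.25), Psmd2 (-0.26), for VPA64h against VPA4h of Psme4 (-0.31), Psma1 (-0.083). Each reversal arose under a rescaling of the arrays, which shifts all genes of a contrast by the same amount. The counts over all probe sets moved with these shifts as well. The replicate block added Psmd10 to the lower genes of VPA4h against Ctrl4h (-0.36, adjusted p = 0.0464), and Psmb8 and Psme2 to those of VPA64h against Ctrl64h. In the difference of VPA effects Psmg1 was lost and Psmb8 and Psmc3ip were gained. Across times the block lost Psmd12 and gained Psmb9 for Ctrl64h against Ctrl16h, and gained Psmb8 and Psme4 for Ctrl16h against Ctrl4h, Psmb10 for Ctrl64h against Ctrl4h and Psmb8 for VPA64h against VPA4h, where the numbers were not read as pairing. With 2 or 3 arrays a group, small differences can be missed, and Psma8 and Psmb11 lay below the median of all tested values on every array, and Psmc3ip on all but 2.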
